A study of Mus musculus with 4 samples.

Results

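The genes described here encode the machinery of RNA polymerase I (Pol I) and RNA polymerase III (Pol III), the nuclear enzymes that transcribe ribosomal RNA, transfer RNA and other short non-coding RNAs. They were chosen by name from the subunits of the enzymes and their initiation factors, together with the Pol III repressor *Maf1*. Every row of the deposited transcript table with any of these symbols was taken. All 34 genes were found among the 21945 genes of the table, with 70 of its 34200 tested transcripts, all annotated as protein-coding. Of the 34 genes, 12 belong to Pol I, 20 to Pol III, and 2 (*Polr1c* and *Polr1d*) encode subunits that both enzymes share.

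The study transfected NIH/3T3 cells, an immortalised mouse fibroblast line, with *Setd2*-specific siRNAs (knockdown, KD) or with a Scrambled siRNA that has no target (wild type, WT), and 2 KD and 2 WT libraries of polyadenylated RNA were sequenced. *Setd2* encodes the methyltransferase that places trimethylation on lysine 36 of histone H3, and the study asked whether its loss alters the processing of pre-mRNA. KD and WT cells shared the carrier (Lipofectamine), the siRNA concentration of 10 nM, the medium and the harvest after 48 h; KD cells received 2 different *Setd2* siRNAs together, so the siRNAs cannot be told apart, and an untransfected group was not analysed here. The series text speaks of independent transfections, but the sample labels do not tie the 2 libraries of a group to separate cultures, so each p-value measures only the spread between these libraries.

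Pol I transcribes a single kind of gene, the repeated ribosomal DNA, in the nucleolus. It is brought there by UBF (*Ubtf*) and by selectivity factor SL1, which holds TBP and the products of *Taf1a* to *Taf1d*, and it is made competent to start by *Rrn3*. Pol III uses TFIIIA (*Gtf3a*) and TFIIIC (*Gtf3c1* to *Gtf3c6*) to recognise promoters inside genes, TFIIIB (*Brf1* or *Brf2* with *Bdp1* and TBP) to position the enzyme, and MAF1 to hold it back when growth conditions are poor. Both systems are known for their activity in growing cells, to which they supply the RNAs of the ribosome and its adaptors. The RNAs they make mostly lack poly(A) tails, so these libraries measured the mRNAs of the machinery and not its output.

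Each value below is the authors' mean over the 4 libraries, not a value per library. A level is that mean taken back from the natural log, in normalised estimated counts, and a level per kilobase is divided by the transcript length in the GENCODE annotation of build GRCm38. The table also gives the variance over the 4 libraries, and from it the part lying between the KD and WT means and the part lying within the groups were computed. A transcript was called when a moderated F test of the part between groups gave a Benjamini-Hochberg adjusted p below 0.05 over all 34200 transcripts. This test has no direction, and the authors' fold changes were not used, so no transcript is described as higher or lower in KD cells. Sequencing depth is unknown from this table.

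*Setd2* itself was measured by 1 transcript on chromosome 9, with a level of 1844 normalised estimated counts. Its SD over the 4 libraries was 1.15 log2 units, its SD within groups was 0.05, and 99.9% of its variance lay between KD and WT (adjusted p = 0.0144). All 8 fibroblast markers examined were in the table, at levels from 3083 to 323250. The defining markers of other cell types were at 113 or below where they were listed, the highest being the epithelial gene *Cdh1*, and 6 of those 11 were in the table.

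A pair of members was carried by isoforms that differ in their coding sequence, and the differing stretches are shown because the isoform values below refer to them. The exon of 111 bases at chr11:102310926-102311036 (GRCm38, minus strand) lies inside the coding sequence of *Ubtf*, and its presence or absence distinguishes the long and short forms of UBF, a protein built of HMG boxes that bind DNA. Its length is a multiple of 3, so the reading frame goes on across it. In the following lines the exon is in capitals, between the last 20 bases before it and the first 20 bases after it, as the transcripts read from 5′ to 3′.

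Ubtf with the exon: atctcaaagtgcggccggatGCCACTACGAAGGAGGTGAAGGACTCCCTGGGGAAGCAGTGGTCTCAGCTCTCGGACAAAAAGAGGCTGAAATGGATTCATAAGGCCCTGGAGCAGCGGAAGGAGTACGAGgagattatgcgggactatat

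Ubtf without the exon: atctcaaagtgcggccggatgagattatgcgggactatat

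*Polr1d* has 2 abundant isoforms that read the same first 26 coding bases, at chr5:147077668-147077693 (plus strand), and then splice to different exons. *Polr1d-201* goes on in an exon whose first 120 bases, chr5:147078535-147078654, are shown. *Polr1d-202* goes on at chr5:147101229-147101303, an exon of 75 bases. The capitals mark the bases that the isoforms do not share.

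Polr1d-201: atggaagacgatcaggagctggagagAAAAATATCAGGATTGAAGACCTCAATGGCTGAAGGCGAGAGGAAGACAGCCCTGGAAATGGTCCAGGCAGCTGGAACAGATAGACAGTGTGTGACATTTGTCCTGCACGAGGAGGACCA

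Polr1d-202: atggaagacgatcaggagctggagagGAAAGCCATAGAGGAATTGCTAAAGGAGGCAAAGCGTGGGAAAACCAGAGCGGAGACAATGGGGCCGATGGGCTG

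All 34 genes were expressed in these fibroblasts. Summed over their tested isoforms, the levels ran from 845 for *Brf2* to 12797 for *Polr1d*, with a median of 2264 against 221 over all genes of the table. Per kilobase, the median of the members was 867 and that of all genes was 120, and each member stood at or above the 57.5th percentile of all genes. The median for the 7 subunits specific to Pol II was 2096 per kilobase over the 6 with an annotated length, so the Pol I and Pol III genes lay mostly below the enzyme that makes mRNA, with *Polr1d*, *Taf1d*, *Polr1c*, *Ubtf* and *Gtf3c6* above that median.

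Pol I genes had the higher median. It was 1052 per kilobase over the 12 Pol I genes, with a range of 624 to 8421, and 683 over the 20 Pol III genes, with a range of 240 to 2316, a ratio of 1.54. The ranges overlapped between 624 and 2316, and the ratio fell to 1.12 when levels were not divided by length. Among enzyme subunits alone the medians were 867 for Pol I and 592 for Pol III. The genes are not replicates of each other, so no test was made of this ratio.

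**Figure D1:**
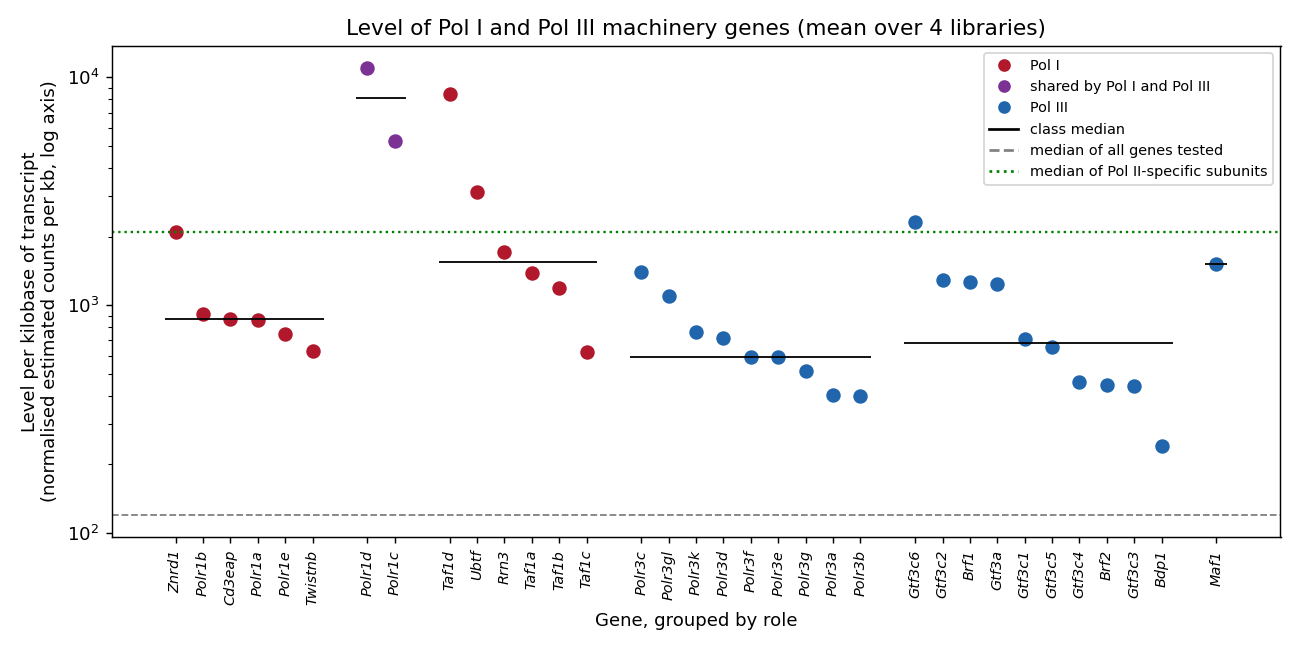
Level per kilobase (normalised estimated counts per kb, log axis) of each of the 34 genes, grouped by role, with the class medians as black lines, the median of all genes tested (120) as a grey dashed line and that of the Pol II-specific subunits (2096) as a green dotted line. Each point is 1 gene, its tested isoforms summed and averaged by the authors over 4 libraries; *Polr1d* (10954) and *Taf1d* (8421) stand highest and *Bdp1* (240) lowest.

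With isoforms summed by gene, the shared subunits stood near the top of the order. *Polr1d* had 10954 normalised estimated counts per kilobase, the highest of the 34, and *Polr1c*, its partner in the assembly core of both enzymes, had 5278, the third. Between them came *Taf1d*, whose main isoform has the shortest coding sequence of the SL1 subunits, at 8421. *Ubtf* followed with 3122. The *Polr1d* value sums mainly *Polr1d-201* and *Polr1d-202*, whose coding sequences share only the exon of their first 26 bases. Alone, *Polr1d-201* had 5799 and *Polr1d-202* had 5146 per kilobase, both below *Taf1d*. Which of these isoforms encodes the subunit that both enzymes share was not examined, so the sum may overstate that subunit.

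The largest subunits were not the most abundant per kilobase. *Polr1a*, which forms the Pol I active site with *Polr1b*, had 865 per kilobase, and *Polr1b* had 912. Their Pol III counterparts *Polr3a* and *Polr3b* had 404 and 400 per kilobase, near each other in turn and among the 3 lowest of all members. On the scale not divided by length, *Polr1a* had a level of 7968, against 3608 for *Polr1b*, 1892 for *Polr3a* and 1991 for *Polr3b*. Both scales placed the pair of Pol I catalytic subunits above the pair of Pol III.

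The other Pol I enzyme subunits lay between 630 and 2090 per kilobase. *Twistnb*, a subunit of the stalk of the enzyme, had 630, *Polr1e* and *Cd3eap*, which form a dimer on its side, had 748 and 870, and *Znrd1*, a small zinc-binding subunit, had 2090. Among the member genes for Pol III enzyme subunits, which are not all of its subunits, *Polr3c* was highest with 1402. *Polr3f* had 592, and the 2 interchangeable partners of *Polr3c* and *Polr3f* in a subcomplex particular to Pol III had 512 (*Polr3g*) and 1096 (*Polr3gl*). Not divided by length, the order of these 2 was reversed, with levels of 1410 for *Polr3g* and 1135 for *Polr3gl*. *Polr3d* and *Polr3e*, a dimer of Pol III, had 717 and 591 per kilobase, and *Polr3k*, a small subunit needed to cleave the transcript, had 763.

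The subunits of one factor were not at one level. Within SL1, *Taf1a* had 1383 per kilobase, *Taf1b* 1192 and *Taf1c* 624, against 8421 for *Taf1d*. Of the *Taf1b* value, 615 came from *Taf1b-203*, a transcript of 521 bases. Within TFIIIC the range was from 440 for *Gtf3c3* and 458 for *Gtf3c4* through 652 for *Gtf3c5*, 713 for *Gtf3c1* and 1287 for *Gtf3c2* to 2316 for *Gtf3c6*, whose main isoform has the shortest coding sequence of the factor. Within TFIIIB *Brf1*, the form used at transfer RNA genes, had 1263, *Brf2*, the form used at promoters that lie upstream of the start, had 445, and *Bdp1* had 240, the lowest of all members. *Gtf3a* had 1233, *Rrn3* 1710 and *Maf1* 1520.

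Some of these levels rest on sequence that other genes also hold. Words of 31 bases were compared with all annotated transcripts, and 7 transcripts of 4 members had over 30% of their words in another gene. *Gtf3c2* had 55.9% to 87.8% of its words in *Gm29609*, which was itself listed with a level of 483. *Taf1d-202* had 40.0% in *Gm13487*, *Taf1d-201* had 34.9% in *Gm13487* or *Gm13488*, *Polr1d-202* had 31.7% in *Gm12751*, and *Taf1b-203* had 33.0% in *Gm19196*, so their levels are uncertain to the extent that reads were divided between the copies. Exons of *Gtf3a*, *Taf1c*, *Brf1*, *Brf2*, *Polr1a*, *Polr3b*, *Cd3eap*, *Polr3gl* and *Taf1d* overlap exons of a gene on the other strand, by 957 bases at most in *Gtf3a-201* with *Mtif3*. The kit keeps the strand, but whether the quantification used it is not given in the sources used here.

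A single isoform was tested for 13 of the 34 genes and several for 21, with 8 for *Ubtf*. Among the 21, the main isoform held over 80% of the level in 9. *Polr1c-201* held 98.8% of its gene, *Polr1b-202* 97.6% and *Polr3g-201* 96.6%. At the other end, *Ubtf-206* held 43.9%, *Polr1e-204* 45.2%, *Gtf3a-205* 46.7%, *Polr1d-201* 54.2% and *Gtf3c6-206* 57.5%. Of the 70 transcripts, 4 had no 31-base word that set them apart from the other tested isoforms of their gene.

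**Figure D2:**
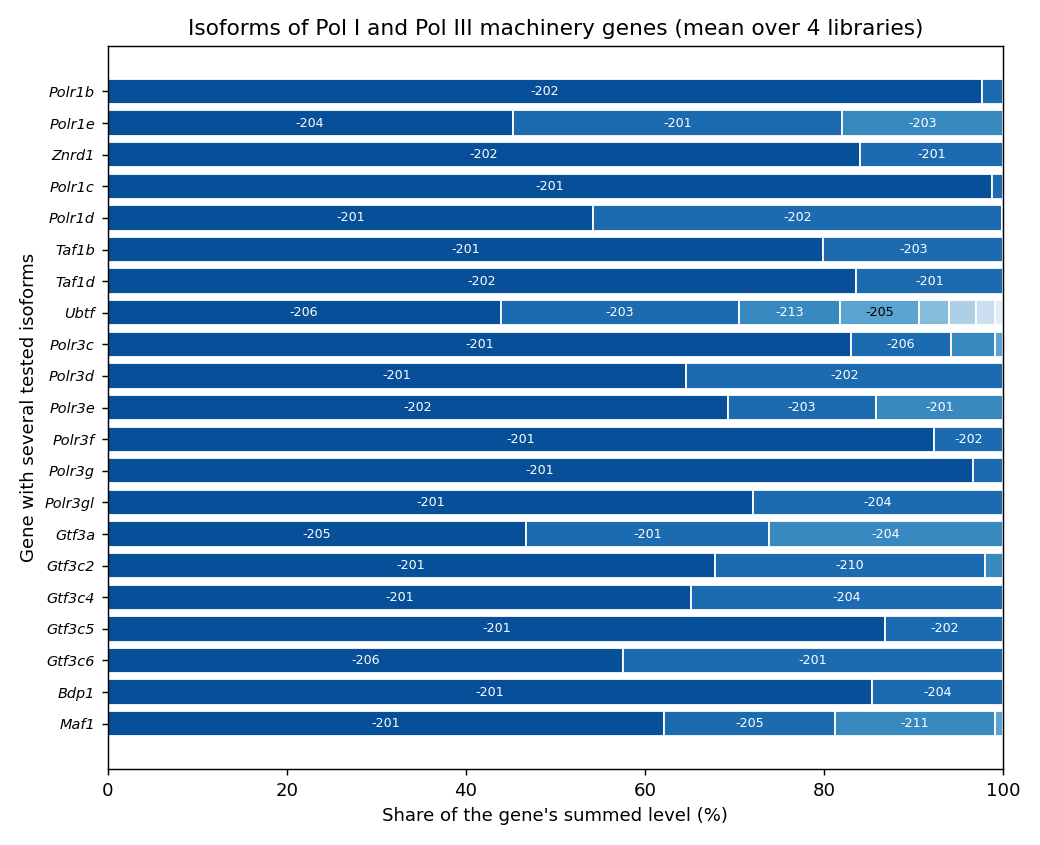
Share of each tested isoform in the summed level of its gene (%), for the 21 genes with several tested isoforms, in order of level from left to right. Values are the authors' means over 4 libraries; *Polr1c* is 98.8% 1 isoform, while *Ubtf* is divided over 8, the largest of them 43.9%.

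The *Ubtf* level was divided almost evenly by the exon printed above. The 2 isoforms with it, *Ubtf-206* and *Ubtf-209*, summed to 4156 normalised estimated counts, and the 5 full-length isoforms without it summed to 4612, so that the exon was present in 47.4% of the sum of both. A short isoform, *Ubtf-207* with a level of 276, ends before the exon and was left out of that share. The isoforms without it were led by *Ubtf-203* with 2404 and *Ubtf-213* with 1023, which encode the same protein sequence and differ outside the coding part.

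The 2 *Polr1d* isoforms printed above were nearly level. *Polr1d-201* had 5799 and *Polr1d-202* had 5146 per kilobase, and the variance of read assignment between repeated estimates was small for both, with SDs of 0.02 log2 units. Their coding sequences have 399 and 378 bases, of which only the first 26 are the same exon. *Polr1d-204*, with a level of 10.5, made up 0.0821% of the gene.

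The transcripts of the machinery varied little over the 4 libraries. The median SD was 0.19 log2 units over the 70 transcripts and 0.31 over all transcripts tested, which are lower in level. At levels of at least 1000 normalised estimated counts the medians were 0.17 over 36 member transcripts and 0.18 over all 9010 such transcripts. The share of the variance that lay between KD and WT had a median of 75.4% over the members and 57.0% over all transcripts, and at levels of at least 1000 these were 82.6% and 80.4%.

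After Benjamini-Hochberg adjustment of the moderated F test, 10 of the 70 member transcripts were called, in 8 of the 34 genes. Over all transcripts tested, 9.68% were called, and 20.8% of those with a level of at least 1000, where 6 of 36 members were called. By gene, 13.2% of all genes had at least 1 called transcript, against 4 of 12 Pol I genes, 4 of 20 Pol III genes and neither shared subunit. Among genes with a transcript at a level of at least 1000, counting those transcripts only, 23.3% of all genes and 6 of 29 members had a call. The shares of Pol I and Pol III genes were not tested against each other. With a prior variance that does not follow the level, none of the 70 was called, while 29 had an unadjusted p below 0.05 in the moderated F test as described, and 127 transcripts of the whole table were called. An unadjusted p below 0.05 was found for 28.2% of all transcripts and for 48.7% of those with a level of at least 1000, where 17 of 36 members had one. When the test was adjusted over the 18808 transcripts with a level of at least 100 only, 26.4% of them and 16 of 62 members were called. A transcript that was not called is not shown to be alike in KD and WT.

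**Figure D3:**
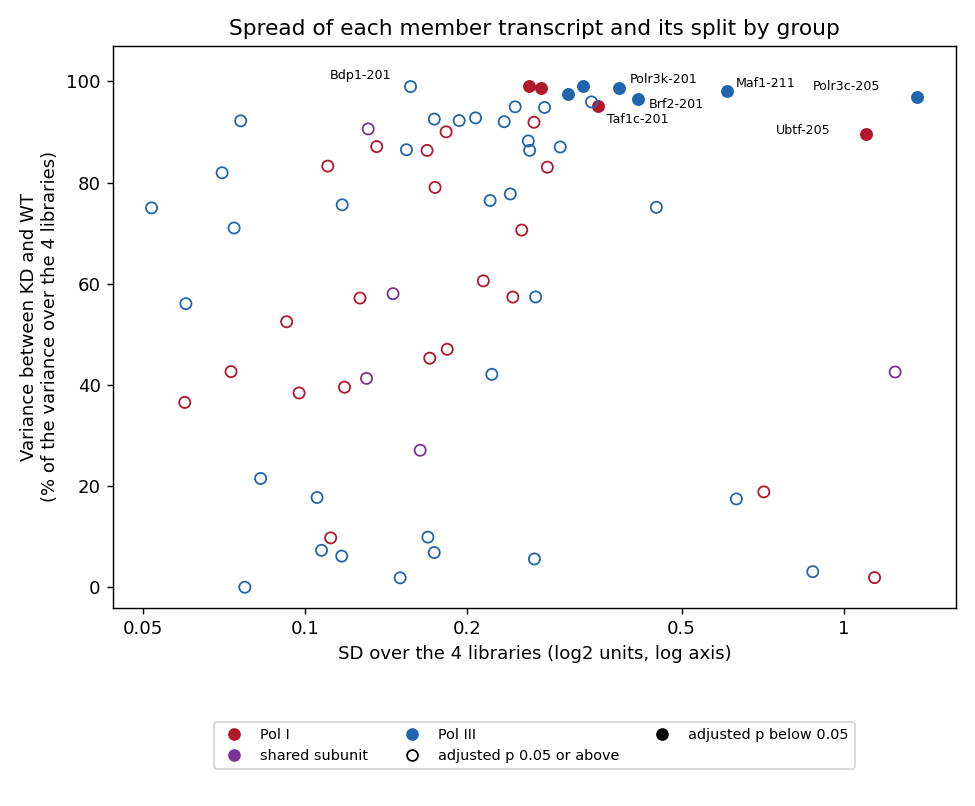
For each of the 70 member transcripts, the SD over the 4 libraries (log2 units, log axis) against the share of its variance that lay between KD and WT (%). Filled points are the 10 transcripts with an adjusted p below 0.05; all 10 have a share of at least 89.6%, and the unfilled *Bdp1-201* at 99.0% has a smaller SD of 0.16.

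Both catalytic subunits of Pol I were called. *Polr1a-201* (chr6:71909061-71982475, 34 exons, the only isoform tested) had an SD of 0.26 log2 units over the 4 libraries and 0.03 within groups, and 99.1% of its variance lay between KD and WT (adjusted p = 0.0291). *Polr1b-202* (chr2:129100995-129126594) had an SD of 0.27, of which 98.6% was between groups (adjusted p = 0.0320). For both, the spread over the libraries was small and nearly all of it lay between the groups. *Polr1a* shares 185 exon bases with *Gm26628* on the other strand, of which no transcript was tested.

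None of the other Pol I enzyme subunits passed. *Cd3eap* had 83.2% of its variance between groups at an SD of 0.11, and *Znrd1-202* had 79.0% at 0.17. *Twistnb* had 39.5% at an SD of 0.12. The 3 isoforms of *Polr1e* had 38.4%, 70.6% and 83.0%, and their adjusted p ranged from 0.142 to 0.587.

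Among the Pol I initiation factors *Taf1c* and *Ubtf* had a called transcript. *Taf1c-201* (chr8:119597975-119605222, minus strand), the only tested isoform of this SL1 subunit, had an SD of 0.35 over the 4 libraries and 0.10 within groups, with 95.1% of the variance between them (adjusted p = 0.0355). It shares 480 exon bases with *Dnaaf1* on the other strand, of which no transcript was tested. The other SL1 subunits were not called. *Taf1a-201* had the smallest SD of all Pol I transcripts, 0.06, with 36.5% between groups, *Taf1b-201* had 52.5% at 0.09, and *Taf1d-202* had 90.02% at 0.18 (adjusted p = 0.0825, and 0.0410 over the transcripts with a level of at least 100). *Rrn3*, which couples Pol I to the growth state of the cell, had 86.3% between groups at an SD of 0.17 (adjusted p = 0.110).

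Of the 8 *Ubtf* isoforms, only *Ubtf-205* was called. It made up 8.87% of the gene, with an SD of 1.10 log2 units over the 4 libraries, 0.43 within groups and 89.6% of the variance between them (adjusted p = 0.0365). The SD from read assignment alone was 1.05, larger than the SD within groups, and 3.82% of its words were found in no other tested isoform. *Ubtf-203*, *Ubtf-204* and *Ubtf-213*, which have the same coding sequence as *Ubtf-205*, had 57.4%, 18.9% and 45.3% of their variance between groups. The main isoform *Ubtf-206*, which holds the printed exon, had an SD of 0.07 with 42.6% between groups (adjusted p = 0.552).

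The shared subunits were not called. *Polr1c-201* had 27.1% of its variance between groups at an SD of 0.16 (adjusted p = 0.508). *Polr1d-201* had 58.0% at 0.15 and *Polr1d-202* had 90.6% at 0.13 (adjusted p = 0.134).

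Among the Pol III enzyme subunits *Polr3k* and *Polr3c* were called. *Polr3k-201* (chr2:181864337-181870830, the only tested isoform) had an SD of 0.38 over the 4 libraries and 0.05 within groups, with 98.6% between them, and the lowest adjusted p of the enzyme subunits of either polymerase, 0.0239. *Polr3c-201* (chr3:96711490-96727628, minus strand), with 83.0% of the gene, had an SD of 0.31 and 97.4% between groups (adjusted p = 0.0322). *Polr3c-205* was called as well, with 96.9% between groups and an adjusted p of 0.0299, but its level was 28.0 and its SD from read assignment, 1.93, exceeded its SD over the 4 libraries, 1.37. With a residual not below the variance of read assignment its adjusted p was 0.0794.

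The other Pol III subunits did not pass, although several had most of their variance between groups. *Polr3a*, *Polr3b* and *Polr3f-201* had 92.8%, 92.5% and 92.2% of it there, at SDs of 0.21, 0.17 and 0.19, and their adjusted p were 0.0781, 0.102 and 0.0858. Over the transcripts with a level of at least 100 only, *Polr3a*, *Polr3f-201* and *Polr3gl-201* passed, with adjusted p of 0.0380, 0.0424 and 0.0454. The interchangeable subunits were unlike in this: *Polr3gl-201* had an SD of 0.30 with 87.0% between groups (adjusted p = 0.0814), and *Polr3g-201* an SD of 0.06 with 56.1% (adjusted p = 0.601). The difference between the 2 was not tested. *Polr3d-201* and *Polr3e-202* had 86.4% and 76.4% between groups. *Polr3d-202*, with 35.4% of the gene and the same coding sequence as *Polr3d-201*, had 5.60%. Of the minor *Polr3e* isoforms, *Polr3e-203* had 17.5% and *Polr3e-201* had 92.0%.

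Of the 10 initiation factor genes of Pol III only *Brf2* had a called transcript. *Brf2-201* (chr8:27123364-27128680, minus strand) had an SD of 0.42 over the 4 libraries and 0.10 within groups, with 96.5% between them (adjusted p = 0.0317). *Brf1*, its paralogue, had an SD of 0.07 with 81.9% between groups (adjusted p = 0.385), and *Bdp1-201* had 99.0% between groups at an SD of 0.16 (adjusted p = 0.0954). A gene on the other strand, *Adgra2*, shares 73 exon bases with *Brf2* and had a called transcript itself. Its part in the *Brf2* value was not tested.

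The TFIIIC genes and *Gtf3a* had no call over all transcripts, but *Gtf3c4-201*, *Gtf3a-201* and *Gtf3a-205* passed over those with a level of at least 100, with adjusted p of 0.0327, 0.0356 and 0.0487. *Gtf3c1*, *Gtf3c2-201* and *Gtf3c4-201* had 86.5%, 92.2% and 88.2% of their variance between groups at SDs of 0.15, 0.08 and 0.26. *Gtf3c3*, *Gtf3c5-201* and *Gtf3c6-206* had 21.5%, 17.7% and 6.86% at SDs of 0.08, 0.11 and 0.17. The other tested isoform of *Gtf3c6*, *Gtf3c6-201* with 42.5% of the gene, had 57.4% at an SD of 0.27 (adjusted p = 0.239). For TFIIIA, *Gtf3a-201* and *Gtf3a-205* had 95.9% and 95.0% of their variance between groups at SDs of 0.34 and 0.25 (adjusted p = 0.0534 and 0.0745). The third isoform, *Gtf3a-204*, has the same coding sequence as *Gtf3a-205*, but 0.0111% of its variance lay between groups at an SD of 0.08. The SDs from read assignment were 0.15 for *Gtf3a-205* and 0.17 for *Gtf3a-204*, above their SDs within groups of 0.07 and 0.09. Of their words, 0% and 4.42% were found in no other tested isoform, and the difference between them was not tested. Exons of *Gtf3a-201*, *Gtf3a-205* and *Gtf3a-204* overlap exons of *Mtif3* on the other strand, by 957, 702 and 781 bases. *Mtif3* had no called transcript, but up to 96.8% of the variance of its transcripts lay between groups. Its part in the *Gtf3a* values was not tested.

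*Maf1* had 2 called isoforms. *Maf1-201* (chr15:76351306-76354373), with 62.2% of the gene, had an SD of 0.33 over the 4 libraries and 0.04 within groups, with 99.1% between them (adjusted p = 0.0289). *Maf1-211*, with 17.9% of the gene, had an SD of 0.61 and 98.1% between groups, and its adjusted p of 0.0229 was the lowest of the 70. *Maf1-205*, with 19.0% of the gene, encodes the same 774 coding bases as these, but 1.87% of its variance lay between groups at an SD of 0.15 (adjusted p = 0.912). The variance of read assignment was not negligible for the minor forms, with SDs of 0.21 for *Maf1-211* and 0.17 for *Maf1-205* against 0.07 for *Maf1-201*. These exceeded the SD within groups for *Maf1-211* (0.10) and *Maf1-201* (0.04) but not for *Maf1-205* (0.18). Of the words of *Maf1-201*, 0% were found in no other tested isoform.

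**Figure D4:**
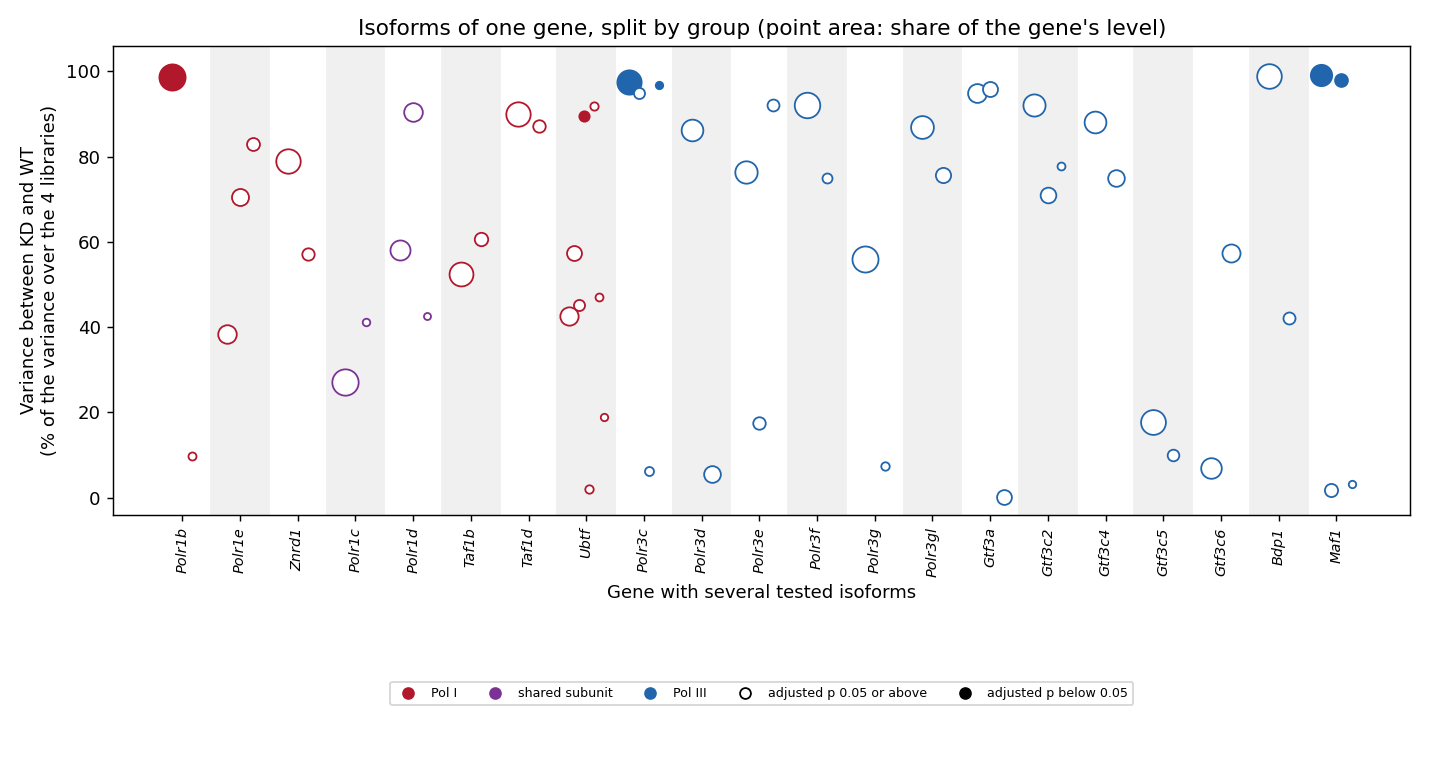
Share of the variance lying between KD and WT (%) for every tested isoform of the 21 genes with several, with the area of a point growing with the isoform's share of its gene and filled points for an adjusted p below 0.05. The isoforms of *Maf1*, *Gtf3a*, *Ubtf* and *Polr3d* stand far apart within 1 gene, as with *Maf1-201* at 99.1% and *Maf1-205* at 1.87%, while those of *Taf1d*, *Gtf3c4* and *Polr3gl* lie near each other. The distances between isoforms were not tested, and isoforms that share sequence can trade reads.

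The main isoforms of the 34 genes and the minor ones differed in how well they were measured. Over the 34 main isoforms the SD from read assignment had a median of 0.04 log2 units and a maximum of 0.15, and the median share of variance between groups was 86.4%. For the 36 minor isoforms these were 0.17, 1.93 and 57.4%. By class, the median share over main isoforms was 81.1% for the 12 of Pol I and 90.2% for the 20 of Pol III. Calls were made for 7 of the 34 main isoforms, whose median level was 2019, and 3 of the 36 minor ones, whose median level was 308, beside the 9.68% over all transcripts and 20.8% at a level of at least 1000.

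In the wider pathway, 5 of 19 further genes had a called transcript, beside 13.2% of all genes and 23.3% of those with a transcript at a level of at least 1000. They were *Polr2e*, a subunit of all the nuclear polymerases, *Snapc2*, of the complex that serves Pol III promoters upstream of genes, *Tcof1* and *Nolc1*, nucleolar proteins that assist Pol I, and *Ssb*, the La protein that binds the ends of new Pol III transcripts. *Polr2e-201* had an SD of 0.30 with 99.1% between groups (adjusted p = 0.0260), and *Tcof1-202* an SD of 0.49 with 95.7% (adjusted p = 0.0258). *Ssb-201* had an SD of 0.35 with 92.4% between groups (adjusted p = 0.0370). *Snapc2-201* had an SD of 0.26 with 99.9% (adjusted p = 0.0437), and *Nolc1-201* an SD of 0.24 with 99.6% (adjusted p = 0.0429). *Tbp*, the subunit that SL1 and TFIIIB share, had 4 isoforms without a call and with 10.2% to 84.4% between groups. Of the 7 Pol II-specific subunits none was called by the moderated F test, which gave 6 of their 14 transcripts an unadjusted p below 0.05, against 28.2% of all transcripts and 48.7% of those with a level of at least 1000.

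The promoters of the members were described by sequence, since their genes lie apart but act in common complexes. RefSeq promoters of 300 bases (250 before and 50 after the start, GRCm38.p6) were matched by symbol for 29 of the 34 genes, with 38 promoters in all. The letters CCGGAAG, a core to which ETS factors bind, occurred on either strand in 16 of the 38 (42.1%), in 8.86% of all 32851 promoters and in 18.4% of the promoters of genes with a level of at least 100. They were found in 6 of 12 Pol I genes, 7 of 15 Pol III genes and 1 of the 2 shared genes. The letters CACGTG, the E-box that MYC and USF bind, occurred in 7 of the 38 (18.4%) against 7.15% and 10.1%, and GGGCGG, the GC box, in 52.6% against 35.7% and 63.4%. TATAAA occurred in 1 of the 38 (2.63%), that of *Gtf3c6*, against 13.6% of all promoters and 6.76% of those of expressed genes. No overlap between the motifs was counted, a match is only a description of the letters, and several promoters belong to the same gene.

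An example of each of the first pair of motifs is shown for a gene with a call, with the motif in capitals. The *Taf1c* stretch lies at chr8:119605207-119605263 and the *Polr3c* stretch at chr3:96727641-96727689, both on the minus strand, and the motifs end 20 and 231 bases before the RefSeq start. The GENCODE start of the called *Polr3c-201*, at chr3:96727628, is nearer to the *Polr3c* motif than that RefSeq start. In *Taf1c* the motif is read from the other strand.

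Taf1c promoter: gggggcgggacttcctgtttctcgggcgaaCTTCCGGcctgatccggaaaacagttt

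Polr3c promoter: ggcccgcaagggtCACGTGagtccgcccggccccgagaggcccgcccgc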

How the data were processed

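Polyadenylated RNA of 2 KD and 2 WT libraries was sequenced after TruSeq Stranded mRNA preparation. Per the study's methods, the authors trimmed adapters (BBDuk), estimated transcript abundance (Kallisto) and fitted a model per transcript (Sleuth); the submitters' processing notes name bcl2fastq 2.17, HISAT2, sleuth and GRCm38. The transcript index and filter are not given in the sources used here. The deposited table holds, per transcript, a mean over the 4 libraries on the natural log scale, taken after 0.5 was added to each normalised estimated count, and variances on that natural log scale: over the libraries, of read assignment and residual. Its remaining columns hold the authors' own fold changes, p-values and q-values of KD against WT, as does the deposited gene table; they were not used, so no direction is given. Values of single libraries, and their depth, were not analysed here.

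The level of a transcript was the exponential of its mean less 0.5. Such levels are geometric means. Gene levels sum over tested transcripts. Lengths, coding sequences and 31-base words came from GENCODE M21 (GRCm38), which matched 98.6% of transcripts by ID; 480 were unmatched, none a member. The variance within groups was the residual plus read-assignment variance (2 degrees of freedom), and the rest of the sum of squares lay between KD and WT. It was tested with limma 3.58.1 in R 4.3.3 (squeezeVar with a trend on the mean, 2.66 prior degrees of freedom), adjusted by Benjamini-Hochberg over 34200 transcripts. On simulated data the test missed most small changes, and some of its calls fell on unchanged transcripts. A transcript that was not called may thus still have differed, and a called one may not have.

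Every member was named, and further genes of the pathway were given as a count, with values for those with a call and for *Tbp*; 1 of them is not reported here. Members, classes and lists were chosen with earlier results of these data known. Alternatives were a prior without trend, a robust prior, a floor on the residual variance, and a minimum level of 100; for the ratio of Pol I to Pol III, other gene sets and scales.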

Additional observations from a re-analysis of the deposited data

How the results depend on the processing

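The calls depended on how the variance within groups was estimated from 2 libraries a group. With a prior without a trend on the level, the calls over all transcripts went from 3312 to 127, and those of members from 10 transcripts in 8 genes to 0 in 0; the lowest adjusted p of a member was then 0.103 and that of *Setd2* 0.0537. With transcripts at a level of at least 100 only, 4965 of 18808 were called (26.4%), with 16 of 62 member transcripts in 14 genes, 5 of Pol I and 9 of Pol III; all 9 of the earlier calls that could be tested again were among them. Chosen after seeing the data, a robust prior gave 3843 calls and the same 10 member transcripts, and a residual not below the variance of read assignment gave 4996 calls in all and 12 member transcripts in 10 genes, 9 of them shared with the calls of the report. The ratio of the Pol I to the Pol III median level per kilobase was 1.54. It was 1.47 over enzyme subunits only, 1.80 with the shared subunits in both classes, 1.67 with the highest transcript in place of the sum, 1.12 without division by length and 1.52 with transcripts at a level of at least 100, above 1 in each. No paired analysis was possible because the table analysed here holds no values of single libraries, and leaving out each replicate was not run for the same reason. The alternative with Sleuth's final variance and a normal reference was not run, since it repeats the authors' own test. Depth is unknown here, so what it limits could not be given.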

Other observations

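*Taf1d* is also a host of small nucleolar RNAs, and all 8 small nucleolar RNA genes annotated inside it on its strand were in the table. They lie within the gene but beyond the 3′ ends of its 2 tested isoforms. Their levels ran from 87.2 to 597 normalised estimated counts. The moderated F test called none of the 8, none had an unadjusted p below 0.05, and 13.6% to 76.8% of their variance lay between KD and WT, with SDs of 0.04 to 0.28 log2 units over the 4 libraries. The libraries were selected for poly(A), so these levels are those of whatever RNA was retained and mapped to the small nucleolar RNA sequences, and their source was not tested. Beside *Taf1d*, on the other strand, *4931406C07Rik* overlaps its isoforms by 20 to 70 exon bases and had a called transcript.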
